A study of Homo sapiens with 4 samples.

Results

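The mitochondrial ribosomal protein genes were followed here in human leukaemia cells with and without knockdown of CEBPG. They were taken by symbol, as every gene named MRPL or MRPS followed by a number and, in some, a letter from A to C. Of 16504 gene symbols in the table, 78 met this rule, 49 named MRPL for the large subunit and 29 named MRPS for the small subunit. All 78 were expressed high enough to be tested. RNA sequencing had been done on 4 libraries labelled as NB4, an established line from acute promyelocytic leukaemia. Control libraries 1 and 2 carried the label NC with CEBPG present, and knockdown libraries 1 and 2 the label CEBPG3 with CEBPG knocked down. As the study's methods describe, hairpins against CEBPG were delivered by lentivirus and stable cells were selected with puromycin, so the libraries come from selected pools of 1 line. What the 3 in the label CEBPG3 stands for is not given in the sources used here, and neither is whether the 2 libraries of a group came from separate cultures. The p-values below then measure only the spread between these samples, which may be technical.

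Mitochondrial ribosomes translate the small set of respiratory chain proteins that mitochondrial DNA encodes. Their RNAs are made inside the organelle, whereas every ribosomal protein comes from a nuclear gene, is translated in the cytosol and is imported. The large subunit joins amino acids and holds the exit tunnel through which the new chain leaves, and the small subunit holds the messenger RNA. Some leukaemia cells are known to depend on mitochondrial translation. CEBPG is a basic leucine zipper factor that pairs with ATF4 in the response to amino acid shortage.

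CEBPG itself measured 17.1 and 18.1 FPKM in the controls against 6.91 and 7.96 FPKM upon knockdown. FPKM, fragments per length of transcript and depth of library, is scaled for length, so levels can be set side by side between genes. The knockdown libraries thus held 42.2% of the control level, and the groups did not overlap. The log2 fold change was -1.14 (SE 0.08, adjusted p = 0.000836 by limma), and the call held when any 1 library was left out. Here and below, a fold change is knockdown against control on the log2(FPKM + 1) scale, and a gene was called when the Benjamini-Hochberg adjusted p over 10968 tested genes was under 0.05.

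Library sums ranged from 345339.9 to 366138.6 FPKM, and between 10875 and 10964 genes reached 1 FPKM in a library. Read depth is unknown because the table holds no counts. The marker genes went mostly against the label NB4, with some myeloid genes as the exception. Of 7 promyelocytic granule genes in the table, 4 or 5 lay under 1 FPKM in every library, with medians between 0.57 and 0.807 FPKM, although LYZ measured 15.0 to 20.1 FPKM and was called lower. Of 7 myeloid surface and lineage genes 4 lay under 1 FPKM in every library, with medians between 0.333 and 0.588 FPKM, while SPI1 measured 15.2 to 17.2, FUT4 6.74 to 7.86 and CD33 4.31 to 9.77 FPKM. Of 14 erythroid genes, 13 were above 1 FPKM in every library, with medians between 92.2 and 107 FPKM. HBG2 measured 2890 to 3766 FPKM and GATA1 110 to 128 FPKM, while EPOR, the lowest of the 13, measured 5.50 to 7.20 FPKM. The summed erythroid level was 7688 to 8130 FPKM in the controls and 8748 to 9311 FPKM in the knockdown libraries. Among its defining genes HBG1, HBG2 and TAL1, for example, were called higher, ALAS2 was called lower, and AHSP stayed under 1 FPKM. The part of this difference in the values of the ribosomal protein genes was not tested. In bulk RNA such as this, fewer cells of a type and less RNA per cell cannot be told apart.

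To address how strongly the mitochondrial ribosome was expressed, the level of each gene was read in each library. The 78 genes summed to 4367 and 4086 FPKM in the controls and to 4206 and 3988 FPKM upon knockdown. As a share of all FPKM, this was 1.19% and 1.18% in the controls against 1.15% and 1.12% upon knockdown. The shares did not overlap between the groups, although the sums did. The median MRPL gene stood at 45.6 and 41.6 FPKM in the controls and at 48.2 and 45.6 FPKM upon knockdown. The median MRPS gene stood at 46.9 and 45.6 FPKM in the controls and at 41.9 and 41.4 FPKM upon knockdown. Thus the MRPL medians overlapped and the MRPS medians were lower upon knockdown. With small subunit genes taken by structure, without MRPS18A, MRPS30 and MRPS36, the medians were 47.5 and 45.7 against 46.1 and 43.9 FPKM and overlapped. The mean MRPL level over the mean MRPS level was 1.07 and 1.08 in the controls and 1.09 and 1.08 upon knockdown, the same to this precision in control 2 and knockdown 2. The ratio of the medians was 0.973 and 0.913 in the controls and 1.15 and 1.1 upon knockdown and did not overlap, so the picture of the balance between the subunits depended on the summary used. For comparison, the median gene of respiratory complex I, which receives several of the proteins made by these ribosomes, stood between 77.1 and 87.8 FPKM, and the median cytosolic ribosomal protein gene between 671 and 735 FPKM. The median tested gene stood between 9.57 and 9.89 FPKM.

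**Figure D1:**
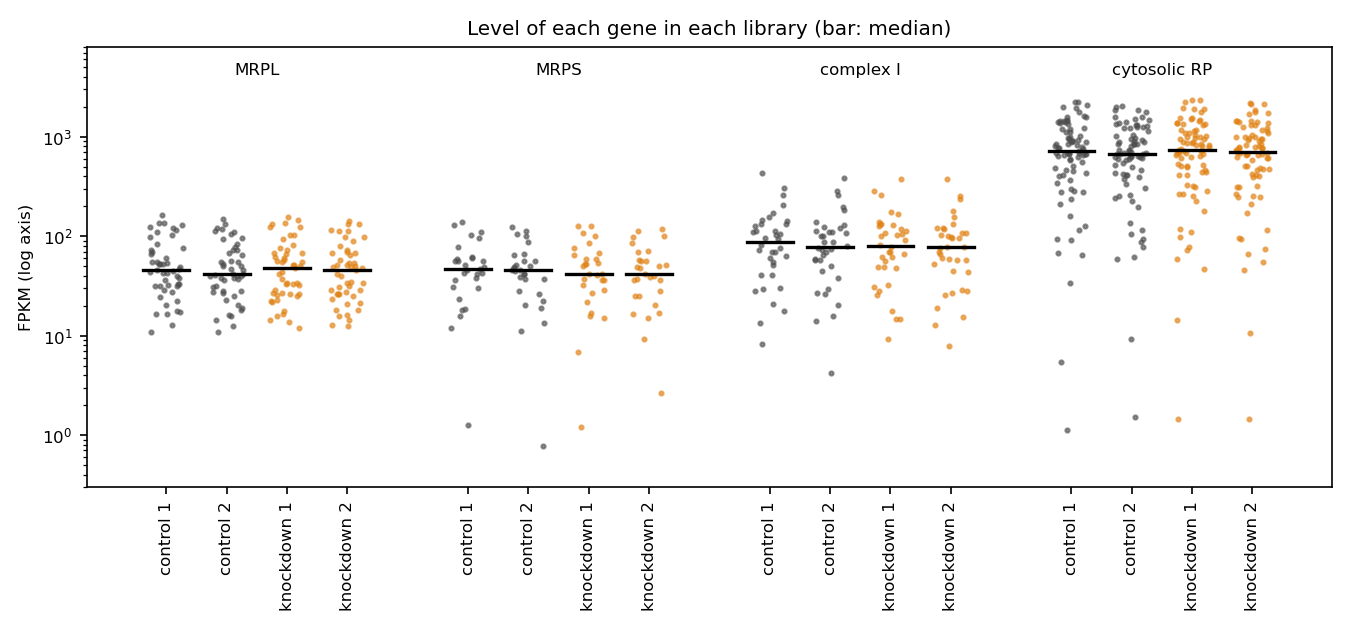
FPKM on a log axis for every gene of 4 lists in each of the 4 libraries, with control libraries in grey, knockdown libraries in orange and a bar at the median. MRPL and MRPS medians lie between 41.4 and 48.2 FPKM in all libraries, below complex I and far below the cytosolic ribosomal proteins (RP), and 1 MRPS gene lies near 1 FPKM.

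Within the set the levels spanned a wide range but were mostly alike. In all, 32 genes had a mean between 20 and 50 FPKM, 22 between 50 and 100 FPKM, and 13 between 100 and 200 FPKM, which left 9 between 10 and 20 FPKM and 2 below. MRPL14, a homologue of a bacterial protein at the subunit interface, had the highest level with 164 and 151 FPKM in the controls and 155 and 143 FPKM upon knockdown. MRPL20 followed with 134 and 134 FPKM against 137 and 133 FPKM. MRPL12, the protein at the tip of the stalk that recruits translation factors and also a partner of the mitochondrial RNA polymerase, came next with 135 and 117 FPKM against 146 and 132 FPKM. The groups overlapped for each of these genes, and MRPL20 and MRPL12 did not differ in level beyond their spread. At the other end, MRPS36 measured 1.26 and 0.77 FPKM in the controls and 1.199 and 2.65 FPKM upon knockdown. Its protein is now known as a part of the 2-oxoglutarate dehydrogenase complex rather than of the ribosome, and it was the only member below 5 FPKM. Its log2 fold change of 0.50 (SE 0.24, adjusted p = 0.185) was the highest of the set, did not pass the test, and rested on knockdown 2. Without knockdown 2 it was 0.14, and without knockdown 1 it was 0.87 with an adjusted p of 0.0409.

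Next, the knockdown was compared with the control for each gene. Of the 78 genes, 14 (17.9%) were called, 11 lower (14.1%) and 3 higher (3.85%) upon CEBPG knockdown. Over all tested genes 20.9% were called, 9.99% lower and 10.9% higher. The total share was therefore near that of all genes. The median log2 fold change was -0.04 over the members against 0.02 over all tested genes, with 48 members below 0 and 30 above. Without control 1, control 2, knockdown 1 and knockdown 2 the member median was -0.02, -0.08, -0.08 and -0.03 against 0.04, -0.01, 0.02 and 0.01 over all genes. The changes were small, with 57 of 78 members under 0.2 in size and only MRPS36 reaching 0.5. The replicates were close as well, since the median SD between libraries of a group was 0.0674 on the log2 scale for members and 0.0714 for all genes. At an unadjusted p under 0.05 there were 21 lower (26.9%) and 7 higher (8.97%) members, against 17.4% and 19.6% of all genes. The study's own threshold, p under 0.05 with a change of more than 2-fold, read here as an unadjusted p, was met by 0 of 78 members in limma and by 0.602% of all genes. The libraries of the groups did not overlap for 45 members, 32 lower and 13 higher, where 64.8% of all genes did not overlap, 30.5% lower and 34.3% higher. The counts of calls rested on single libraries. With control 1, control 2, knockdown 1 or knockdown 2 left out, 6, 10, 4 and 2 members were called lower and 5, 0, 1 and 1 higher. In the fit without control 2, 14.7% of all genes were called, against 17.6% without control 1, 7.52% without knockdown 1 and 7.64% without knockdown 2.

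**Figure D2:**
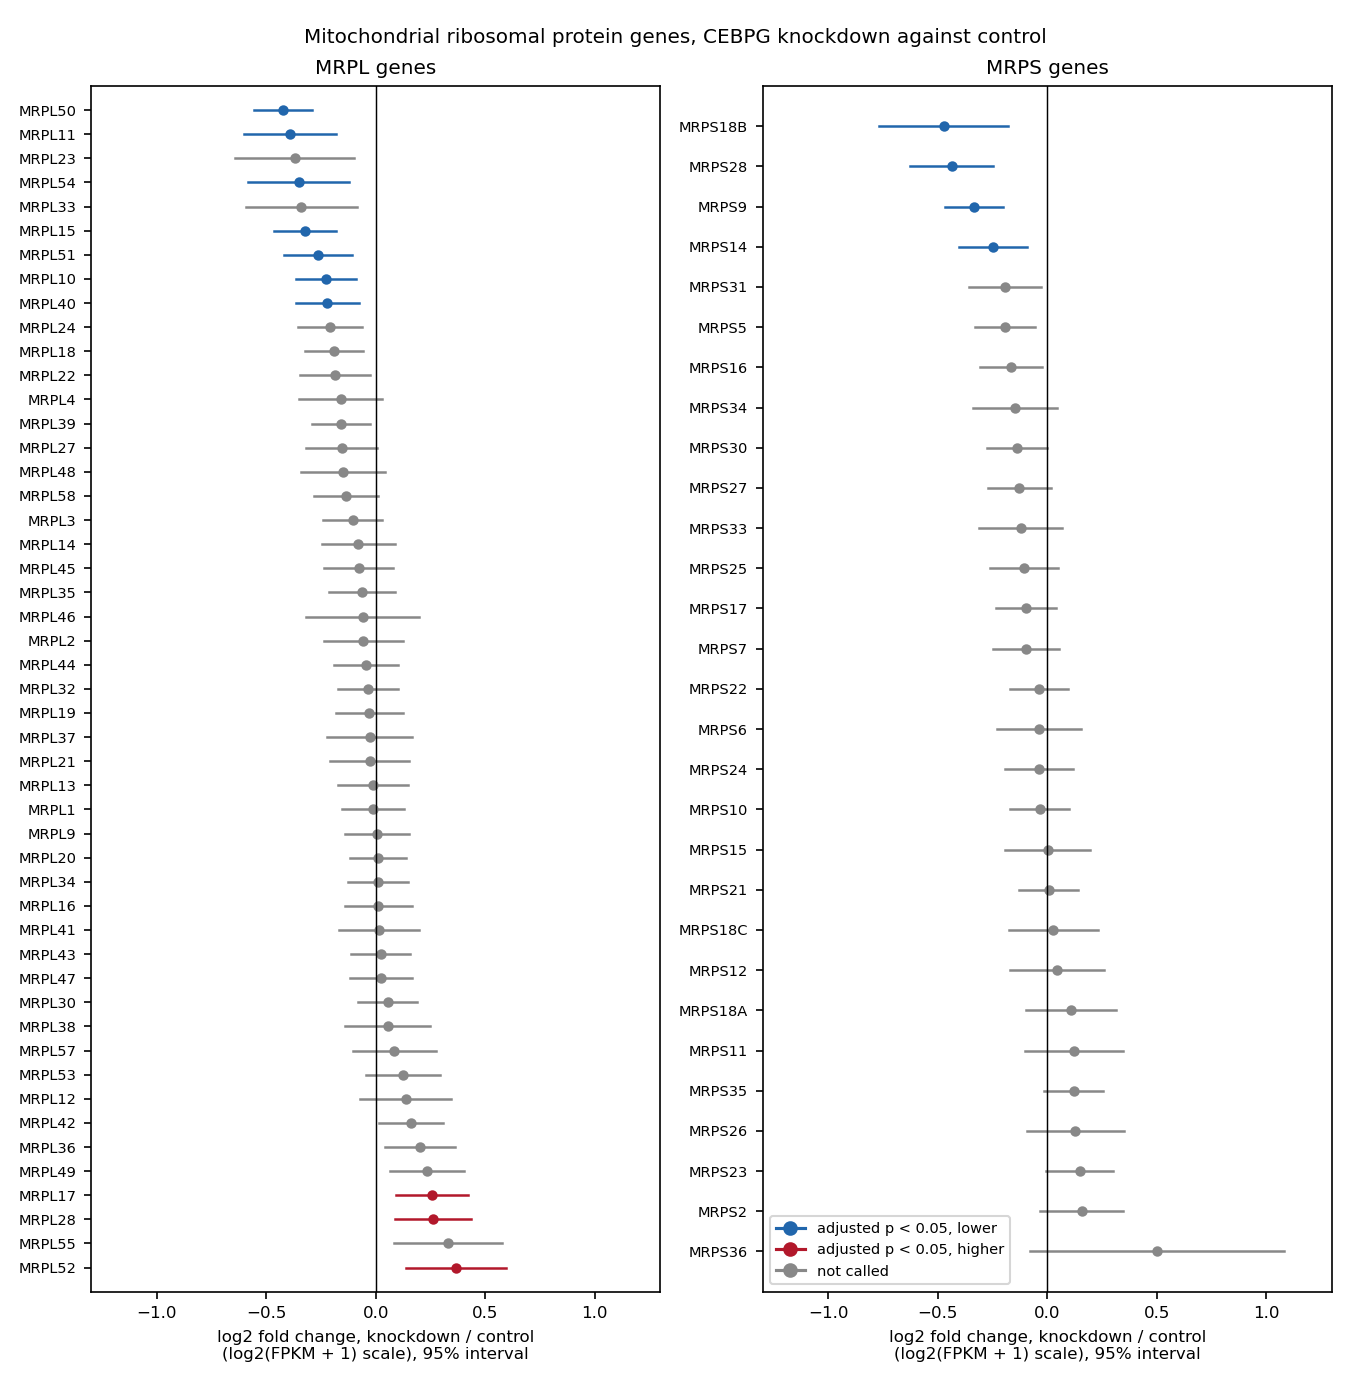
Log2 fold change of each MRPL gene (left) and MRPS gene (right), knockdown against control on the log2(FPKM + 1) scale, as a point with its 95% interval from limma. The 11 genes called lower are blue, the 3 called higher are red and all others are grey, and most points lie within 0.2 of 0.

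Large and small subunit genes were then set side by side, with no test between them. Of 49 MRPL genes, 7 were called lower and 3 higher, with a median log2 fold change of -0.04. Of 29 MRPS genes, 4 were called lower and 0 higher in limma, with a median of -0.04 as well. At an unadjusted p under 0.05, 0 MRPS genes and 7 MRPL genes (14.3%) were higher, where 19.6% of all genes were. The share called was 20.4% for MRPL and 13.8% for MRPS, on both sides of the 17.9% of the whole set. Of all tested genes 20.9% were called, 9.99% lower and 10.9% higher. Symbols do not follow the subunit in every case, as the proteins of MRPS30 and MRPS18A are built into the large subunit. Placed by structure, 51 large subunit genes had a median of -0.04 and 26 small subunit genes one of -0.07, with the same genes called. Without control 1, control 2, knockdown 1 and knockdown 2, MRPL calls were 3, 8, 3 and 1 lower and 4, 0, 0 and 1 higher, and MRPS calls were 3, 2, 1 and 1 lower and 1, 0, 1 and 0 higher. Members were also split by whether the protein has a direct counterpart in bacterial ribosomes or was added in mitochondria, called mitochondria-specific here even where it is a relative of a bacterial protein, as in MRPS18B and MRPL58. Of 46 genes with a counterpart 6 were called lower and 2 higher (17.4% in all). Of 31 mitochondria-specific genes 5 were called lower and 1 higher (19.4% in all). Both shares were near the 20.9% of all genes.

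The promoters of called members are given first, because the knockdown lowered a transcription factor and promoters are where such factors bind. Sequences are from a set of RefSeq promoters on GRCh38.p14, in which 69 of the 78 members had an entry. MRPL10, MRPL15 and MRPS28, all called lower, had none in this set. The 100 bases before the annotated start are printed 5′ to 3′ on the strand of the gene, with searched motifs in capitals. These 6 were chosen to show called genes with each common motif and 1 without a match in the printed stretch. MRPL52 at chr14:22829787-22829886 (plus strand) holds the YY1 letters 2 times, MRPL17 at chr11:6683341-6683440 (minus strand) and MRPS18B at chr6:30617740-30617839 (plus strand) hold NRF1 letters, MRPL40 at chr22:19432445-19432544 (plus strand) and MRPL54 at chr19:3762582-3762681 (plus strand) hold ETS letters, and MRPL50 at chr9:101398619-101398718 (minus strand) holds none in this stretch but has a YY1 match elsewhere in the searched window.
MRPL52: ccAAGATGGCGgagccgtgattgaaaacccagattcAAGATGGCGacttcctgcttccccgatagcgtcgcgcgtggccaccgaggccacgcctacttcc
MRPL17: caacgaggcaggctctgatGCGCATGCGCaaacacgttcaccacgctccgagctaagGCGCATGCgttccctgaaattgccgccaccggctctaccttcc
MRPS18B: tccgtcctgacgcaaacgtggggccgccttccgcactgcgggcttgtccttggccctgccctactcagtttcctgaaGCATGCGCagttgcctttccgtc
MRPL40: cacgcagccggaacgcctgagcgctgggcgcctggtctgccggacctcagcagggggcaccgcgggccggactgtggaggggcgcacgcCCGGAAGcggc
MRPL54: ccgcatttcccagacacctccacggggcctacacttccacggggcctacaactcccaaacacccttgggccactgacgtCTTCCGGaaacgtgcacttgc
MRPL50: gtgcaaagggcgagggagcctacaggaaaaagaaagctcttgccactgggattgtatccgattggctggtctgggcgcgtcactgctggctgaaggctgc

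The promoters were searched for 6 motifs on both strands from 250 bases before to 50 bases after the start. The ETS letters CCGGAAG, read by a factor family that includes GABPA, were found in 28 of 69 member promoters (40.6%), in 21.7% of the promoters of tested genes and in 10.6% of all 27305 promoters. The YY1 letters AAGATGGCG were found in 13 members (18.8%), in 4.5% of tested genes and in 1.81% of all promoters. The NRF1 letters GCATGCGC were found in 6 members (8.7%), in 6.01% of tested genes and in 3.21% of all promoters. They overlap themselves when both strands are read, as in the first capital run of MRPL17. The letters of elements that CEBPG and its partners are known to bind were rare in tested genes as well as in members. The composite C/EBP-ATF element TGATGNAA was found in 1 member (1.45%), in 1.52% of tested genes and in 3.75% of all promoters. The palindrome TTGCGCAA was found in 0 members, 0.236% of tested genes and 0.125% of all promoters. The cAMP response element TGACGTCA was found in 0 members, 3.53% of tested genes and 1.94% of all promoters. Of the 8 members called lower that had a promoter entry, 3 held ETS, 2 YY1 and 1 NRF1 letters, and of the 3 called higher, 2 held ETS, 1 YY1 and 2 NRF1 letters. These matches describe letters in a window and are not binding data.

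**Figure D3:**
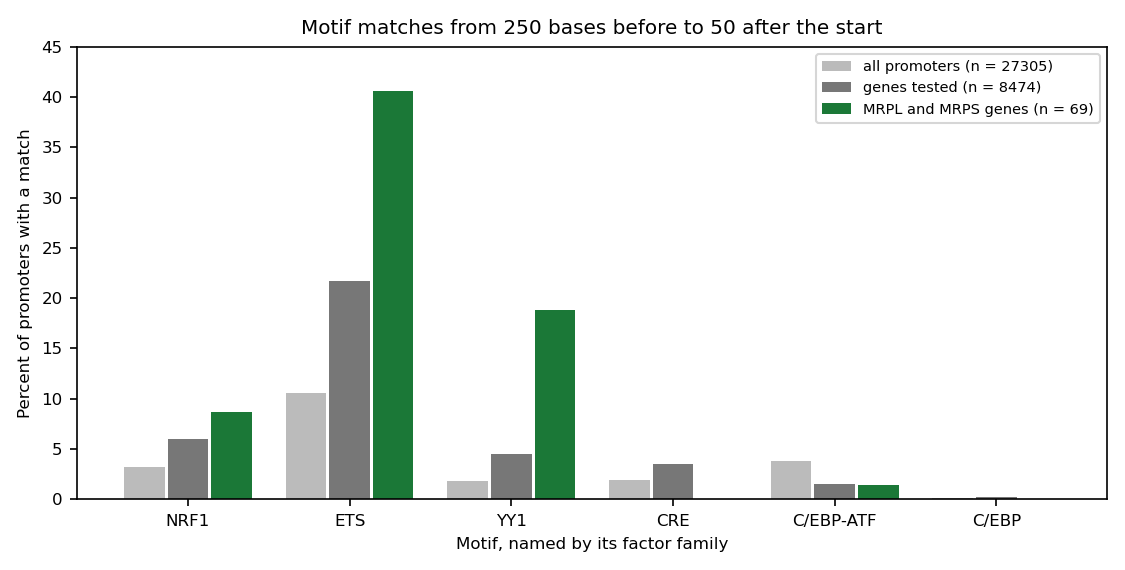
Percent of promoters, from 250 bases before to 50 after the start, with a match on either strand to each of 6 motifs, named by factor family, for all promoters (light grey), tested genes (dark grey) and member genes (green). The member bars are highest at ETS (40.6%) and YY1 (18.8%), and at or near 0 for CRE, C/EBP-ATF and C/EBP.

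Small subunit genes that fell upon CEBPG knockdown were MRPS18B, MRPS28, MRPS9 and MRPS14. MRPS28, whose protein belongs to the family of bacterial protein S1, measured 36.2 and 37.4 FPKM in the controls and 29.0 and 25.02 FPKM upon knockdown. The groups did not overlap, and the log2 fold change was -0.44 (SE 0.08, adjusted p = 0.0129). MRPS9, a homologue of bacterial S9 in the head of the subunit, measured 45.9 and 45.7 FPKM against 35.9 and 36.3 FPKM. Both knockdown libraries were below both controls by about the same amount, with a log2 fold change of -0.33 (SE 0.06, adjusted p = 0.00915). MRPS14, also a protein of the head, measured 17.9 and 19.1 FPKM against 15.7 and 15.1 FPKM, a log2 fold change of -0.25 (SE 0.06, adjusted p = 0.0382). MRPS18B, the gene with the lowest level after MRPS36, measured 11.8 and 11.1 FPKM against 6.87 and 9.25 FPKM. Its log2 fold change of -0.47 (SE 0.12, adjusted p = 0.0378) was the lowest of the set, and its knockdown libraries lay further apart than its controls. Without knockdown 1 it was -0.28, behind MRPS28 at -0.54, and without knockdown 2 it was -0.66. Left-out libraries ended most of these calls. The adjusted p of MRPS28 was 0.0693 without knockdown 2, that of MRPS9 0.0725 without knockdown 1 and 0.0643 without knockdown 2. MRPS14 was at 0.118, 0.128 and 0.174 without control 2, knockdown 1 and knockdown 2, and MRPS18B at 0.0978, 0.0698 and 0.122 without control 1, control 2 and knockdown 1.

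MRPS18B is 1 of 3 genes related to bacterial protein S18. MRPS18C, the closest homologue, measured 31.0 and 27.9 FPKM in the controls and 32.1 and 28.02 FPKM upon knockdown, with a log2 fold change of 0.03 (SE 0.09, adjusted p = 0.851). MRPS18A, whose protein sits in the large subunit, measured 58.7 and 49.5 FPKM against 59.6 and 56.7 FPKM, with a log2 fold change of 0.11 (SE 0.09, adjusted p = 0.409). The groups overlapped for both, in contrast to MRPS18B, but differences between the 3 genes were not tested. The signs of MRPS18A and MRPS18C turned to -0.01 and -0.05 without control 2, and that of MRPS18C to -0.07 without knockdown 1. MRPS12, the protein of the decoding centre, measured 78.3 and 65.7 FPKM against 76.6 and 71.6 FPKM, a log2 fold change of 0.05 (SE 0.09, adjusted p = 0.751) that was -0.08 without control 2 and -0.002 without knockdown 1. MRPS30 measured 46.9 and 44.98 FPKM against 41.9 and 41.4 FPKM. Its groups did not overlap, yet its log2 fold change of -0.14 (SE 0.06, adjusted p = 0.129) did not pass the test.

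Of the large subunit, the stalk held 3 of the 7 genes called lower, or 3 of its 5 genes, where 9.99% of all genes were called lower. The stalk is the flexible arm that brings elongation factors to the ribosome, and MRPL10 and MRPL11 form its base. MRPL11 measured 42.8 and 37.5 FPKM in the controls and 32.2 and 28.5 FPKM upon knockdown, a log2 fold change of -0.39 (SE 0.09, adjusted p = 0.0243). MRPL10 measured 31.8 and 31.0 FPKM against 26.9 and 26.4 FPKM, a log2 fold change of -0.23 (SE 0.06, adjusted p = 0.0346). MRPL54, a mitochondria-specific protein beside the stalk, measured 39.3 and 38.2 FPKM against 33.5 and 27.2 FPKM, a log2 fold change of -0.35 (SE 0.10, adjusted p = 0.045). The groups did not overlap in these genes, and knockdown 2 was the lowest library in each. The other stalk genes lay above 0 and did not pass the test, MRPL12 at 0.14 (SE 0.09, adjusted p = 0.297) and MRPL53 at 0.12 (SE 0.07, adjusted p = 0.255). The log2 fold change of MRPL12 was 0.24 without control 1 but 0.03 without control 2. With 5 genes in this group, no more can be said than these counts. MRPL11 was at an adjusted p of 0.0596 without control 1 and 0.126 without knockdown 2. MRPL10 lost its call whichever library was left out, at 0.0547 to 0.17, and MRPL54 without control 1, control 2 and knockdown 2, at 0.0976, 0.0808 and 0.189. The log2 fold change of MRPL54 was -0.21 without knockdown 2 and -0.50 without knockdown 1.

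Elsewhere in the large subunit, MRPL50 gave the firmest call. This mitochondria-specific protein measured 35.9 and 35.9 FPKM in the controls and 26.7 and 26.4 FPKM upon knockdown. Libraries of a group nearly coincided, and the log2 fold change was -0.42 (SE 0.06, adjusted p = 0.00467). It was the only member still called with any 1 library left out, at adjusted p between 0.0102 and 0.0388. MRPL15, a homologue of bacterial L15, measured 52.4 and 50.3 FPKM against 41.8 and 39.9 FPKM, a log2 fold change of -0.32 (SE 0.06, adjusted p = 0.0132). MRPL51, among the highly expressed members, measured 114 and 106 FPKM against 94.1 and 88.9 FPKM, a log2 fold change of -0.26 (SE 0.06, adjusted p = 0.0318). MRPL40, a protein of the central protuberance, which faces the head of the small subunit, measured 121 and 113 FPKM against 102 and 99.0 FPKM, a log2 fold change of -0.22 (SE 0.06, adjusted p = 0.0432). No groups overlapped in these genes. MRPL15 was at 0.0621 without knockdown 1 and 0.0963 without knockdown 2. MRPL51 was at 0.0732, 0.116 and 0.2 and MRPL40 at 0.0988, 0.181 and 0.235 without control 1, knockdown 1 and knockdown 2.

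In contrast, MRPL52, MRPL28 and MRPL17 rose upon CEBPG knockdown. MRPL52, a mitochondria-specific protein, measured 45.7 and 39.95 FPKM in the controls and 60.0 and 51.1 FPKM upon knockdown, a log2 fold change of 0.37 (SE 0.10, adjusted p = 0.0389). MRPL28, a homologue of bacterial L28, measured 102 and 93.6 FPKM against 123 and 112 FPKM, a log2 fold change of 0.26 (SE 0.07, adjusted p = 0.047). MRPL17, a homologue of bacterial L17, measured 10.8 and 10.96 FPKM against 13.7 and 12.7 FPKM, a log2 fold change of 0.26 (SE 0.07, adjusted p = 0.0418). Both knockdown libraries were above both controls in each of these genes. MRPL52 was at 0.112 without control 2 and 0.196 without knockdown 1. MRPL28 was at 0.128, 0.277 and 0.095 without control 2, knockdown 1 and knockdown 2, and MRPL17 was at 0.0825 to 0.215 with any library left out. Just outside the threshold were 5 lower and 2 higher genes, MRPL18 at -0.19 (adjusted p = 0.0531), MRPL24 at -0.21 (adjusted p = 0.0548), MRPS5 at -0.19 (adjusted p = 0.0548), MRPL23 at -0.37 (adjusted p = 0.0625), MRPL33 at -0.34 (adjusted p = 0.0643), MRPL55 at 0.33 (adjusted p = 0.0643) and MRPL49 at 0.23 (adjusted p = 0.057). MRPL23 passed it without control 2, at 0.0352, and MRPL33, MRPL55 and MRPL49 without control 1, at 0.022, 0.0268 and 0.0214.

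**Figure D4:**
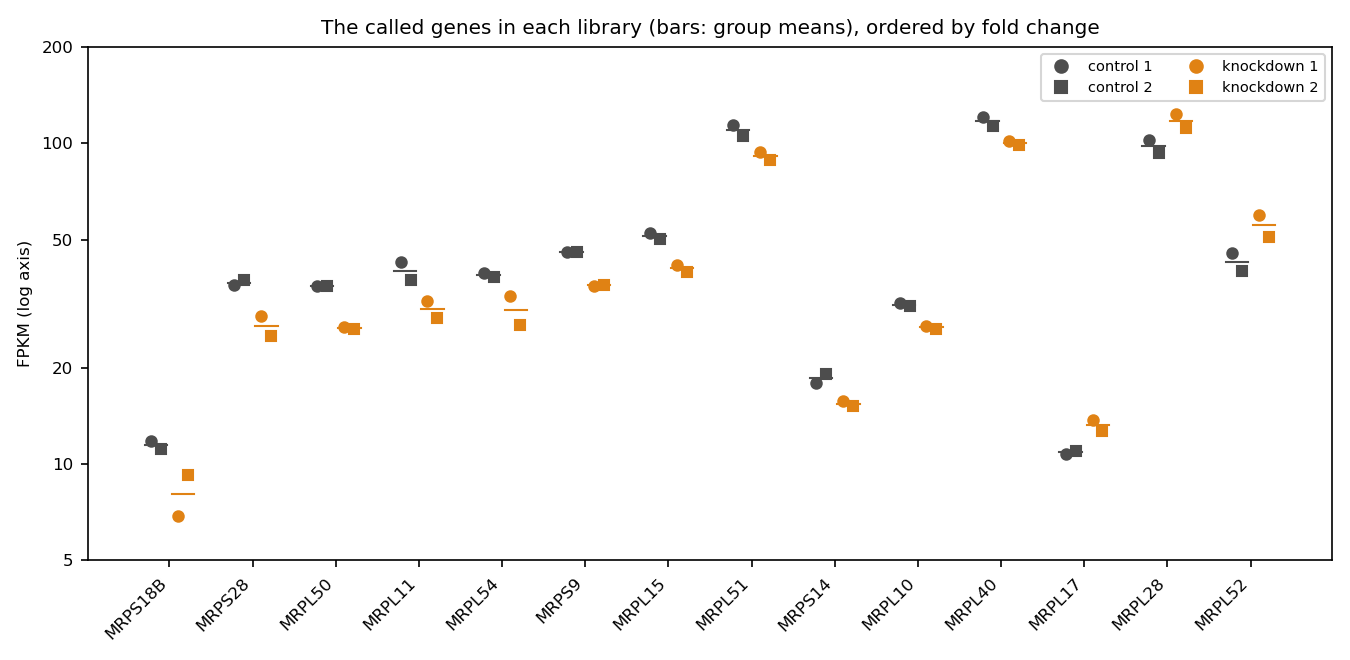
FPKM on a log axis of the 14 called genes in each library, ordered from the lowest to the highest fold change, with circles for replicate 1, squares for replicate 2 and bars at the group means. In the 11 genes on the left both knockdown libraries (orange) lie below both controls (grey), and in the 3 on the right above them.

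Other working parts of the large subunit held 1 call among 17 genes of 3 groups, where 20.9% of all genes were called, and the groups are too small to read more from this. Of the 7 genes around the exit tunnel, which include MRPL23 and MRPL45, limma called 0, with 4 lower at an unadjusted p under 0.05 (17.4% of all genes were) and a median log2 fold change of -0.16. For 5 of the 7 both knockdown libraries lay below both controls, as for 30.5% of all genes, and with 7 genes chosen with these results known nothing more is read from this. Of 5 genes grouped here as catalytic core, MRPL2, MRPL3, MRPL4, MRPL16 and MRPL27, 0 were called. In this group 0 had an unadjusted p under 0.05, and the median was -0.10. MRPL4, at -0.16, could also be counted at the exit tunnel. Of 5 genes of the central protuberance only MRPL40 was called, with a median of -0.15. MRPL58, a release factor relative built into the large subunit, measured 54.6 and 55.0 FPKM in the controls and 51.7 and 48.0 FPKM upon knockdown. Its log2 fold change was -0.14 (SE 0.06, adjusted p = 0.161).

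The deposited table lists transcripts, so shifts between transcripts of a gene could be read as well. In 47 members there was 1 transcript, and 31 had between 2 and 8. MRPS18A changed its make-up in a single library. Its transcript NM_001193343 measured 3.58 and 2.94 FPKM in the controls and 2.27 and 22.5 FPKM upon knockdown, whereas NM_018135 measured 55.1 and 46.5 against 57.3 and 34.2 FPKM. Only knockdown 2 stood apart, and the sum over both transcripts did not. In MRPS27, NM_001286751 measured 4.54 and 0.184 FPKM in the controls and 5.27 and 7.66 FPKM upon knockdown, with control 2 apart from the other libraries. These were the 2 transcripts that moved by more than 1 on the log2 scale while their gene moved by less than 0.5. In MRPL55, the transcript NM_181463 measured 13.5 and 14.5 FPKM in the controls and 26.8 and 25.2 FPKM upon knockdown. NM_181464 measured 3.54 and 3.90 against 6.54 and 5.78 FPKM and was also higher in both knockdown libraries. NM_181454 went the other way, with 4.275 and 2.64 against 2.17 and 0.899 FPKM. NM_181441 measured 22.4 and 17.9 against 24.6 and 16.3 FPKM, with overlapping groups. It was the highest of the 8 MRPL55 transcripts by its mean over the 4 libraries but lay below NM_181463 in both knockdown libraries. In MRPL43, NM_176793 measured 2.74 and 2.88 FPKM in the controls and 0.937 and 1.147 FPKM upon knockdown while the gene sum stayed between 28.2 and 29.0 FPKM. No test was run on transcripts, and FPKM of transcripts that share exons are estimates of a split.

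Where these genes lie bears on how their reads can be told apart. In GENCODE 44 on GRCh38, the 78 genes sit on 21 chromosomes. Pseudogenes named after them are annotated for 36 members, 5 of them called (MRPL50, MRPL51, MRPL15, MRPL40 and MRPS18B), so their values are uncertain to the extent that reads were shared. An exon of 30 members overlaps a gene on the other strand, and the library kit does not mark strand. Among called members these are MRPL11 with PELI3, MRPL51 with NCAPD2, MRPS14 with CACYBP and MRPS9 with an antisense RNA. PELI3 measured 1.09 to 1.89 FPKM and the antisense RNA of MRPS9 at most 0.287 FPKM, whereas NCAPD2 measured 31.4 to 33.3 FPKM and CACYBP 99.7 to 108 FPKM, neither of them called. MRPL28 overlaps PGAP6 on the same strand, which measured 17.9 to 21.7 FPKM and had a log2 fold change of 0.17 (SE 0.07, adjusted p = 0.151). The share of reads from these neighbours in the members' values was not tested.

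Many members start back to back with another gene. For 19 members a coding gene starts on the opposite strand within 1000 bases, and in 16 such pairs the neighbour was tested. Of these neighbours 1 was called, where 20.9% of all genes were. It was NDUFB5, a complex I subunit whose start lies 41 bases from that of MRPL47. NDUFB5 measured 76.7 and 72.8 FPKM in the controls and 56.4 and 58.7 FPKM upon knockdown, a log2 fold change of -0.37 (SE 0.06, adjusted p = 0.0084). MRPL47 measured 52.5 and 55.5 FPKM against 55.8 and 54.1 FPKM, a log2 fold change of 0.02 (SE 0.06, adjusted p = 0.796). Thus genes on the sides of this shared start differed in their values, although the difference was not tested. MRPL46 and MRPS11 share a start region of 63 bases and were both not called, at -0.06 (SE 0.11) and 0.12 (SE 0.09). MRPL50 starts 233 bases from ZNF189, which measured 4.39 and 4.96 FPKM in the controls and 5.73 and 5.75 FPKM upon knockdown, with a log2 fold change of 0.25 (SE 0.08, adjusted p = 0.0763).

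The ribosome also holds subunits without an MRP symbol, and 5 were tested in the same fit. GADD45GIP1, a large subunit protein, measured 139.5 and 122 FPKM in the controls and 101 and 95.9 FPKM upon knockdown and fell with a log2 fold change of -0.41 (SE 0.08, adjusted p = 0.014). DAP3, a GTP-binding protein of the small subunit, measured 82.8 and 81.8 FPKM against 71.8 and 67.9 FPKM and fell with a log2 fold change of -0.23 (SE 0.06, adjusted p = 0.0333). The groups did not overlap for either gene. AURKAIP1, CHCHD1 and PTCD3 were not called. Thus 2 of 5 were called, both lower, where 20.9% of all genes were called and 9.99% were called lower. With 5 genes no more is read from this. Of these 5 genes 1 was called without control 1, 1 without control 2, and 0 without knockdown 1 or knockdown 2.

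To reveal whether genes that build and run the ribosome moved as well, the lists of assembly factors, translation factors and mitochondrial DNA expression genes were read in the same way. Of 31 assembly and RNA modification genes 3 were called lower and 0 higher in limma (1 higher at an unadjusted p under 0.05), with a median log2 fold change of -0.02. The 9.68% called lower was close to the 9.99% of all genes. NDUFAB1, the mitochondrial acyl carrier protein, which serves fatty acid synthesis and complex I and also binds the large subunit during assembly, measured 116.5 and 118.5 FPKM in the controls and 40.6 and 40.1 FPKM upon knockdown. This was a larger difference than in any member, with a log2 fold change of -1.52 (SE 0.05, adjusted p = 0.000164), and it was called with any library left out. The assembly partner MALSU1, named for that role, measured 47.5 and 41.0 FPKM against 46.9 and 39.6 FPKM, with overlapping groups. MRM1, which methylates the large ribosomal RNA, measured 5.34 and 5.85 FPKM against 3.37 and 2.80 FPKM, a log2 fold change of -0.69 (SE 0.10, adjusted p = 0.00589). MTG1, a GTPase of large subunit assembly, measured 7.22 and 6.12 FPKM against 5.04 and 4.54 FPKM, a log2 fold change of -0.40 (SE 0.10, adjusted p = 0.0303). Without knockdown 2 the assembly list had 2 calls, and 3 without any other library.

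Of 17 translation factors 1 was called in each direction (11.8% in all, against 20.9% of all genes), with a median of 0.02. MTIF2, the initiation factor, measured 41.6 and 42.6 FPKM in the controls and 32.7 and 33.8 FPKM upon knockdown and fell by 0.33 on the log2 scale (SE 0.06, adjusted p = 0.0107). C12orf65, a factor that rescues stalled ribosomes, measured 13.4 and 12.8 FPKM against 16.5 and 17.1 FPKM, a log2 fold change of 0.33 (SE 0.06, adjusted p = 0.0152). Of 22 genes for mitochondrial DNA expression 3 were called lower and 2 higher (22.7% in all). TRMT10C and HSD17B10, which work together in RNase P of mitochondria, were called in opposite directions. TRMT10C measured 31.3 and 29.9 FPKM in the controls and 22.7 and 22.05 FPKM upon knockdown, a log2 fold change of -0.43 (SE 0.06, adjusted p = 0.00544). HSD17B10, which also breaks down isoleucine, measured 92.0 and 86.5 FPKM against 128 and 117 FPKM, a log2 fold change of 0.45 (SE 0.07, adjusted p = 0.00672). The other calls were ELAC2 and TFB2M, lower, and POLG, higher. Without control 1, control 2, knockdown 1 and knockdown 2 the translation factors had 4, 2, 0 and 0 calls and the DNA expression genes 4, 5, 2 and 2.

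Complex I and the cytosolic ribosome served for comparison. The list of 36 complex I genes leaves out NDUFAB1, which was counted under assembly. Of these, 2 were called lower and 0 higher in limma, or 5.56%. The called genes were NDUFB5 and NDUFS4, the latter at -0.36 (SE 0.07, adjusted p = 0.0184). At an unadjusted p under 0.05, 7 were lower (19.4%) and 0 higher, against 17.4% and 19.6% of all genes. The median log2 fold change was -0.08, with 29 genes below 0 and 7 above. Of 79 cytosolic ribosomal protein genes 8 were called lower and 3 higher, or 13.9%, and the median was 0.04. The member set had 17.9% called and all genes 20.9%, but the lists were not tested against each other and their order depended on the scaling. With columns scaled to one sum, 24 of 78 members and 26 of 79 cytosolic genes were called, against 24.4% of all genes. Complex I had 4, 4, 1 and 0 calls and the cytosolic ribosome 11, 8, 1 and 1 calls without control 1, control 2, knockdown 1 and knockdown 2.

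**Figure D5:**
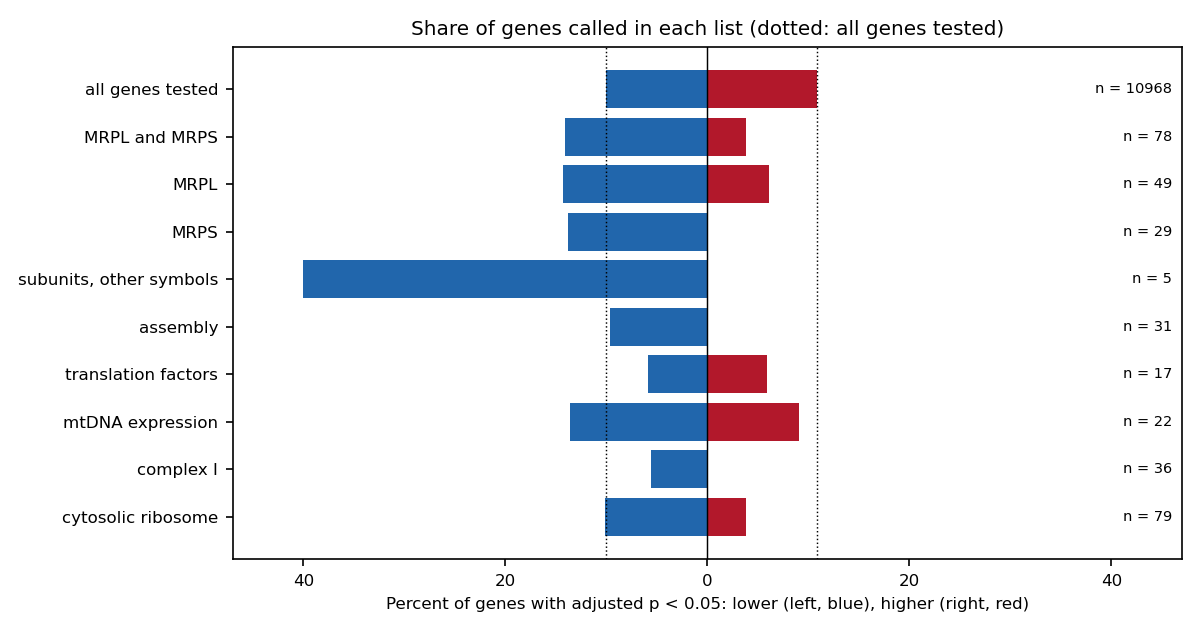
Percent of tested genes called lower (blue, to the left) and higher (red, to the right) in each list, with dotted lines at the 9.99% and 10.9% of all tested genes. The MRPL and MRPS genes together reach 14.1% lower and 3.85% higher, and the 5 subunits with other symbols, of which 2 were called, give the longest bar.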

How the data were processed

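Total RNA of 4 libraries (2 control, 2 CEBPG knockdown) had been sequenced after preparation with a TruSeq kit that does not mark strand. The authors aligned reads with HISAT2 2.0.5 to hg38, per the submitters' processing notes, and deposited FPKM per transcript. The quantifier and annotation release are not given in the sources used here. The authors' differential test used DESeq2, and the paper does not state its input. Counts are not analysed here and could not be recovered, since the low FPKM values of 1817 genes formed no steps of single reads (0.44% at the most common ratio), so no interval for read counting is given. Of 29265 entries, 183 without a value and 164 without a symbol (0.25% of FPKM) were left out.

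Transcripts were summed per symbol. Those averaging 1 FPKM or more (10968 genes) were tested on log2(FPKM + 1) with limma 3.58.1 in R 4.3.3, 2-sided, with a mean trend in the moderation, no term for the replicate number and Benjamini-Hochberg adjustment. The pseudocount of 1 understates changes of low genes. Among called members averaging at least 10 FPKM, full statistics were given for the 10 lowest and 10 highest fold changes. Values were given for the 3 highest and 3 lowest members, MRPS12, MRPL12, MRPS18A to MRPS18C, MRPS30 and MRPS36. In other lists called genes were named. MRPL18, MRPL23, MRPL24, MRPL33, MRPS5, MRPL49, MRPL53, MRPL55, MRPL58, MALSU1 and the transcripts and neighbours were singled out after their values were seen. The members and lists were chosen with earlier results of these data known. The alternatives were another pseudocount, filters, scalings, moderation without a trend, a replicate block, 1 transcript per gene, subunits by structure, and each library left out. MPO, ELANE, CTSG and RNASE2 are not analysed here. The call of 1 erythroid marker is not reported here.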

Additional observations from a re-analysis of the deposited data

How the results depend on the processing

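None of the 14 called members changed sign under any of 12 alternatives, and only MRPL50 was called in all 12 (adjusted p 0.00049 to 0.0388). A pseudocount of 0.1 gave the same counts as the values reported. The counts that follow are members called lower and higher, then the same for MRPL and for MRPS. They were 3 and 0 (MRPL 2 and 0, MRPS 1 and 0) with no filter on low values, 16 and 5 (MRPL 11 and 5, MRPS 5 and 0) with a minimum mean of 5 FPKM, 17 and 5 (MRPL 12 and 5, MRPS 5 and 0) with median-ratio scaling, 20 and 4 (MRPL 13 and 4, MRPS 7 and 0) with columns scaled to one sum, 5 and 0 (MRPL 3 and 0, MRPS 2 and 0) with moderation without a trend, and 2 and 0 (MRPL 1 and 0, MRPS 1 and 0) with the most abundant transcript per gene. Over all genes these settings called 5.34%, 29.0%, 24.5%, 24.4%, 17.2% and 5.39%. In the same order of settings, calls among other-symbol subunits were 0, 2, 2, 2, 1 and 1, assembly genes 2, 3, 3, 3, 3 and 2, translation factors 2, 2, 3, 3, 2 and 1, mitochondrial DNA expression genes 2, 7, 7, 7, 3 and 1, complex I genes 1, 2, 4, 10, 2 and 2, and cytosolic ribosomal proteins 3, 14, 14, 26, 8 and 5. The MRPS median log2 fold change was -0.0676 at the minimum of 5 FPKM and for subunits by structure, and -0.096 with the most abundant transcript. MRPL20 turned to -0.0043 with median-ratio scaling and -0.0119 with columns scaled to one sum, and with the most abundant transcript MRPL55 turned to -0.0024 and MRPS18A to -0.188. For all of these the cause was not tested.

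Left-out libraries gave 2 to 10 members called lower and 0 to 5 higher (MRPL 1 to 8 and 0 to 4, MRPS 1 to 3 and 0 to 1), and in the other lists 0 to 1, 2 to 3, 0 to 4, 2 to 5, 0 to 4 and 1 to 11 calls. The MRPS median ranged from -0.1 to -0.0184, and MRPL20 from -0.0068 to 0.027, MRPS12 from -0.0796 to 0.171, MRPS18A from -0.0137 to 0.229 and MRPS18C from -0.0679 to 0.12. A lone sample was then assumed to vary like the other group. The labels do not say that replicate numbers pair the libraries, and with only 2 pairs the correlation of 0.101 between deviations of same-numbered libraries does not settle it. Library 1 had the higher FPKM sum in both groups. With the replicate number as a block, 20 members were called lower and 7 higher (MRPL 13 and 7, MRPS 7 and 0), and 31.4% of all genes. Newly called in limma were, among others, MRPL23 and MRPL33 (lower, adjusted p = 0.00124 and 0.00163). So were MRPL49, MRPL55 and MRPL12 (higher, adjusted p = 0.0107, 0.000999 and 0.0391). MRPL23, MRPL33, MRPL49 and MRPL55 were also called with a minimum mean of 5 FPKM. The block gave 2, 5, 5, 8, 13 and 40 calls in the other lists, so that 27 of 78 members and 40 of 79 cytosolic genes were called. FPKM without counts limit what can be said of precision, most of all for MRPS36 and low transcripts.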
